A study of Mus musculus with 6 samples.

Results

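The ribosome of the cytosol is built from 4 ribosomal RNAs and a fixed set of ribosomal proteins, and every protein a cell makes is made on it. The genes for these proteins are among the most strongly transcribed of any cell. They are usually regulated together, largely at translation, because most of their mRNAs begin with a run of pyrimidines, the terminal oligopyrimidine or TOP sequence, through which the kinase mTOR and the protein LARP1 control them. The axons of neurons, those of sympathetic ganglia included, are known to hold mRNAs of some of them. Interferon-gamma is known from human monocytes to act on translation through 1 ribosomal protein, RPL13A, which leaves the ribosome and joins the GAIT complex.

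The genes described here are those that the platform annotation names Rpl or Rps followed by a number, with an optional final letter, together with Rplp0, Rplp1, Rplp2 and Rpsa. Pseudogenes, the Rps6k kinases and mitochondrial ribosomal proteins were left out. This gave 73 of the 19087 genes measured, 47 of the large and 26 of the small subunit, on 138 of the 33653 features that carry 1 gene. Any other ribosomal protein gene is not analysed here, except the few named as related genes below.

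Cultured mouse sympathetic neurons were either treated with interferon-gamma at 500 U/ml for 24 h (+IFN, 3 arrays) or left as controls over the same 24 h (Control, 3 arrays). Neuron RNA was labelled with Cy5 on all 6 two-colour arrays, and Cy3 marked a ganglion RNA used as reference on each array, from untreated sympathetic cervical ganglia taken at postnatal day 5. All values are log2 ratios of neuron RNA over this ganglion reference, and a difference is +IFN minus Control. The labels give no strain or age for the neurons and do not tell whether replicates are separate cultures, so errors and p-values cover the spread among these 6 arrays only, part of which may be technical.

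All 6 textbook targets of interferon-gamma that were measured (Irf1, Tap1, Psmb9, Gbp2, Socs1 and Cxcl9) rose, with a median difference of 3.55, and the direction of the ratios was taken in part from them. Of 13 sympathetic neuron markers 0 passed the threshold, 12 differences were below 0, with a median of -0.16 and a lowest of -0.97, and 2 genes were lower at an unadjusted p under 0.05 (limma). The array medians of these markers were -0.21 to -0.03 on +IFN arrays and -0.29 to 0.22 on Control arrays. The 11 markers of dividing cells, none of which passed, all had positive differences, with a median of 1.07. Their array medians were -0.462, -2.075 and -0.465 on +IFN arrays 1, 2 and 3, and -1.759, -2.236 and -1.766 on Control arrays 1, 2 and 3. Of 10 macrophage markers, 2 rose, C1qa and C1qc, and 6 were higher at an unadjusted p under 0.05 (limma). Macrophage medians were 0.11 to 0.63 on +IFN arrays and -0.38 to -0.12 on Control arrays. None of the 8 satellite and Schwann cell, 9 fibroblast and 9 endothelial markers passed. Their array medians, in that order, were -1.14 to -0.17, -1.41 to 0.38 and -0.84 to -0.63 on +IFN arrays. On Control arrays they were -0.87 to -0.27, -1.01 to -0.01 and -0.90 to -0.41. In both groups, array 2 held the lowest median of the dividing cell, macrophage, satellite and Schwann cell, fibroblast and endothelial markers. It also held the highest median of the neuron markers in both groups. Whether these other cells contribute to ribosomal protein ratios was not tested.

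The starts of the transcripts are shown because the TOP sequence lies there. Of the 73 genes, 59 had 71 annotated starts in the RefSeq promoter table of GRCm38.p6. An unbroken run of at least 8 C or T bases that included the start base or the base before it was present at 18 of the 71 starts, or 25.4%, against 5.32% of all 32851 starts in the table. A start without such a run says only that these letters are not at the listed position. The windows below hold 15 bases before the start and 15 from it onwards, with the run in capitals, for 6 of the genes described in the results.
Rps6 (chr4:86857353-86857382, minus strand): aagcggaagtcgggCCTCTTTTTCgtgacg
Rplp2 (chr7:141447636-141447665, plus strand): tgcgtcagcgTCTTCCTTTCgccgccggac
Rps27 (chr3:90213634-90213663, minus strand): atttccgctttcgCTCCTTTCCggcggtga
Rps18 (chr17:33955651-33955680, minus strand): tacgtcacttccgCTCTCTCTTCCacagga
Rpl28 (chr7:4792950-4792979, plus strand): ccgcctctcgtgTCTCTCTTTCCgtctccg
Rpl14 (chr9:120571502-120571531, plus strand): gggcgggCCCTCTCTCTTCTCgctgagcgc

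Motifs of interferon signalling were also looked for, on both strands of the 300 bases from 250 before to 50 after each start. GAS, a promoter motif of interferon-gamma signalling, was spelled TTCNNNGAA, and ISRE, the site of interferon-stimulated gene factors, as GAAA, any 2 bases and GAAA again. GAS was present at 4 of the 71 ribosomal protein starts (5.63%), against 8.30% of all starts, and ISRE at 7 of 71 (9.86%), against 3.44% of all starts. Because both strands were searched, a stretch of C and T bases can match the ISRE spelling. The matches of Rpl27a, Rpl4, Rpl5 and Rps7 hold only C and T as read along the gene, and those of Rpl38, Rps19 and Rps23 do not. How far pyrimidine stretches account for the ISRE share was not tested. Of the 7 starts of the textbook interferon-gamma targets, which all rose, GAS was present at 1 and ISRE at 2. The site CCGGAAG, bound by ETS factors such as GABP, was present at 26 of 71 (36.6%), against 8.86% of all starts. It was about as frequent at starts of mitochondrial ribosomal protein genes, 26 of 75 (34.7%). Matches to 2 of these motifs overlapped at 1 of the 71 starts. The matched letters are shown for Irf1 and Gbp2, which rose, and for Rpl4, the ribosomal protein gene with the highest difference, picked for display after its value was seen. Capitals mark the match.
Irf1, GAS (chr11:53769914-53769942, plus strand): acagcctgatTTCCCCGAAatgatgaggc
Gbp2, ISRE on the opposite strand (chr3:142620594-142620623, plus strand): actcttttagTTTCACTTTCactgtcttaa
Rpl4, GAS (chr9:64173153-64173181, plus strand): ttacgaattaTTCCGCGAAaaagagtccc
Rpl4, ISRE on the opposite strand (chr9:64173361-64173390, plus strand): gtgacaagtcTTTCCTTTTCctgtgggagc

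The RNA ratios of ribosomal protein genes differed little between +IFN and Control neurons. None of the 73 genes passed the threshold in either direction (limma over all genes, adjusted p under 0.05, lowest adjusted p = 0.628, for Rpl4), where 1.14% of all genes did, 1.12% higher and 0.021% lower in +IFN. Without adjustment, 0 of the 73 had a limma p under 0.05 in either direction, against 5.27% of all genes higher and 2.68% lower. The median difference was 0.02, beside 0.01 for all genes, and the 73 differences ran from -0.21 for Rpl41 to 0.58 for Rpl4, or from 0.865-fold to 1.49-fold. The difference was positive in 42 genes and negative in 31, where 51.2% of all genes were positive. In a culture, fewer cells of a type and less RNA per cell cannot be told apart, and because each array was centred on its own median, a change of total RNA or of all mRNAs together would not appear in these ratios.

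**Figure D1:**
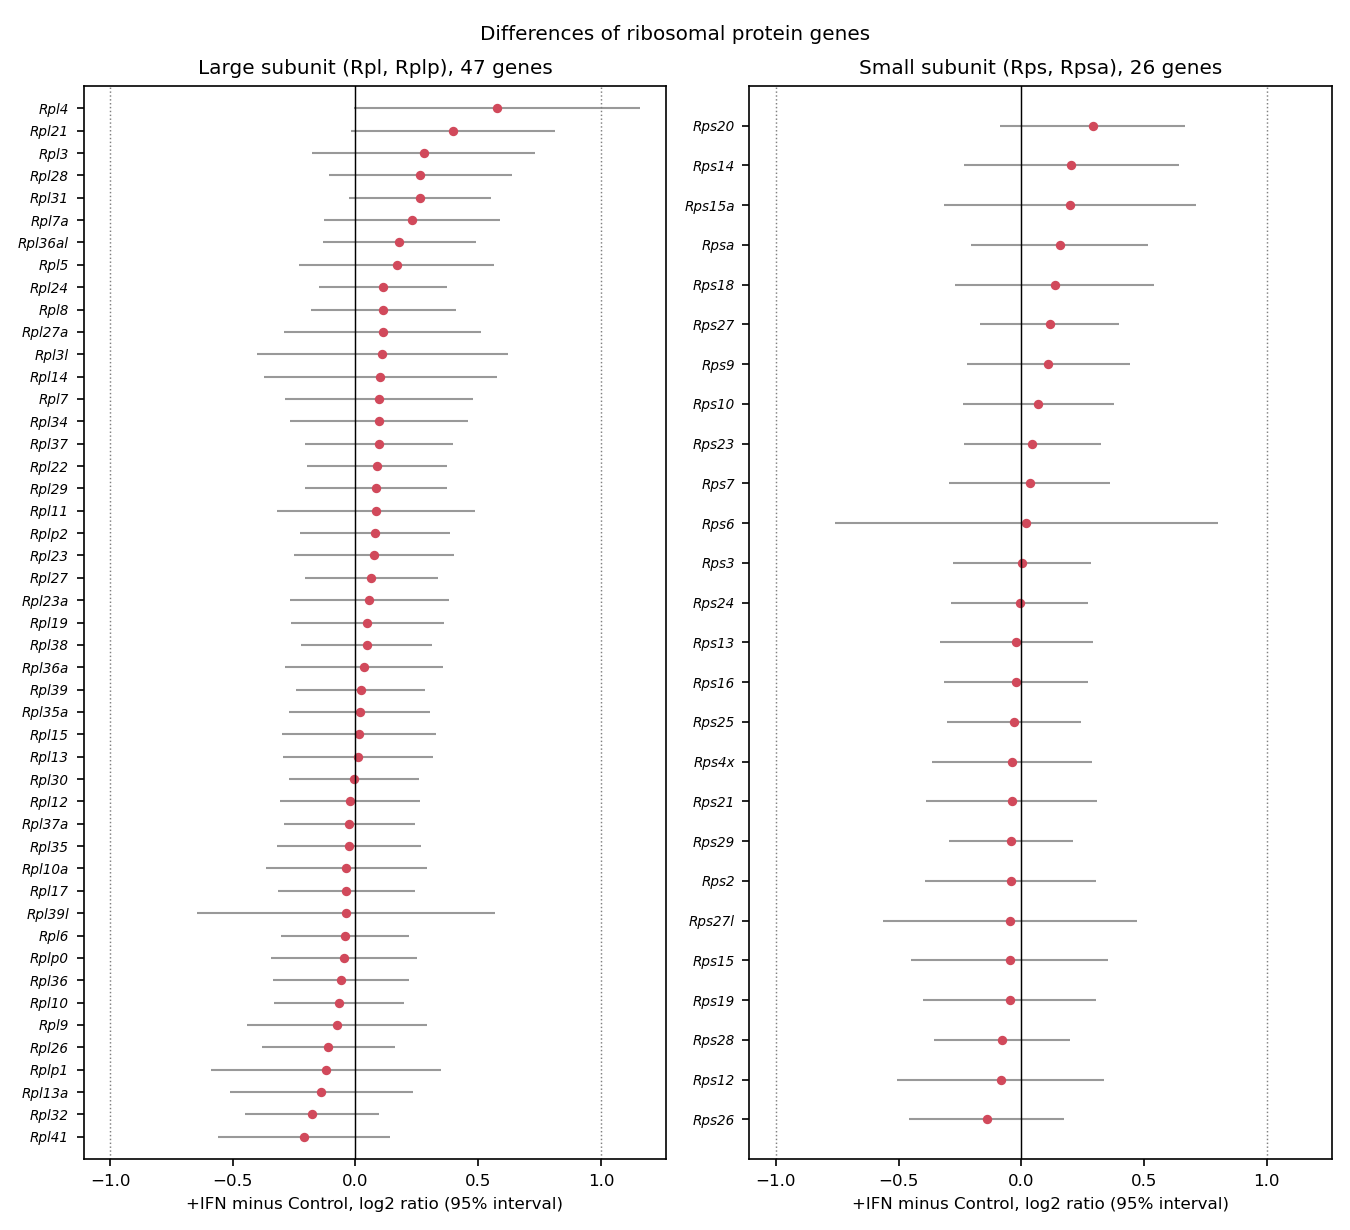
Difference of each ribosomal protein gene (point, +IFN minus Control, log2 ratio) with its 95% interval (line), large subunit on the left and small subunit on the right. All 73 intervals include 0, and the interval of Rpl4 is the single one that passes 1 (dotted lines at -1 and 1).

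The intervals show how large a change the arrays leave room for. A p that misses the threshold does not show that a gene kept its level, but the 95% interval lay within 1 either way, a 2-fold change, for 72 of 73 genes, where this held for 80.8% of all genes. It lay within 0.5 either way for 51 of 73, where this held for 37.9% of all genes. The highest upper limit was that of Rpl4, 1.16 (2.23-fold), and the lowest lower limit was that of Rps6, -0.76 (0.591 times the Control level). The within-group SD of a gene, pooled over the groups, had a median of 0.131 over the 73 genes and of 0.213 over all genes. Rps29, a small subunit protein, had the lowest (0.0476) and Rps6 the highest (0.481) of the 73.

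The genes as a set sat slightly below the ganglion reference on every array. Their median ratio was -0.095, -0.162 and -0.036 on +IFN arrays 1, 2 and 3, and -0.163, -0.141 and -0.048 on Control arrays 1, 2 and 3. The groups overlapped, and +IFN array 3 and Control array 3 had the values nearest to 0. The median over all genes lay between -0.032 and -0.003 on the 6 arrays. Neuron RNA was below the reference, as a mean over 3 arrays, for 44 of the 73 genes in +IFN neurons and for 49 in Control neurons. This held for 9933 of all 19087 genes in +IFN neurons and for 10211 in Control neurons. Dyes were not swapped, and a gene's dye bias, if any, is part of each ratio.

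**Figure D2:**
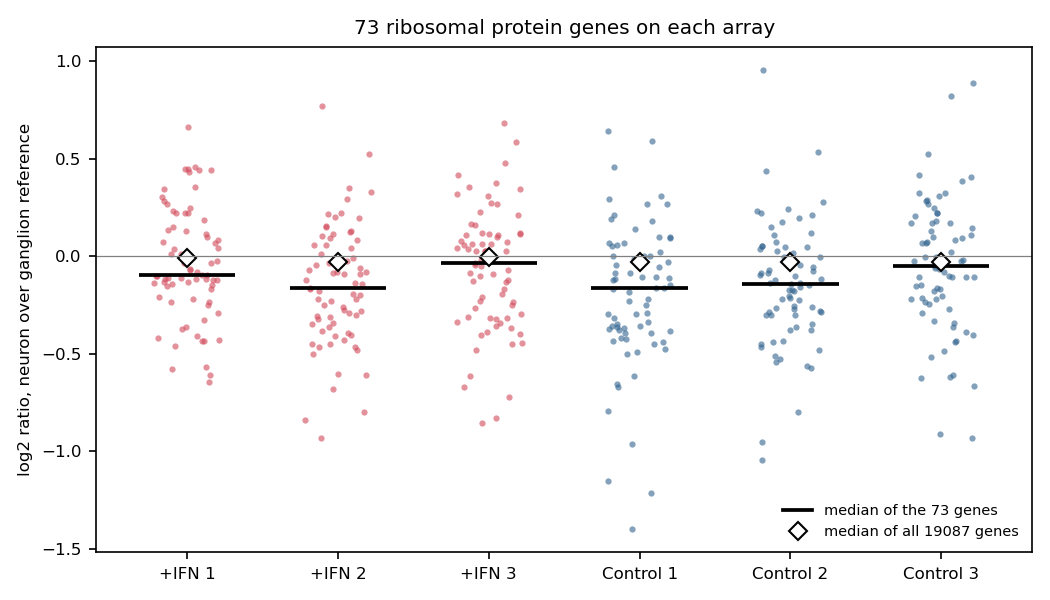
Log2 ratio of neuron over ganglion RNA (vertical axis) of the 73 ribosomal protein genes (points) on each of the 3 +IFN and 3 Control arrays, with their median (bar) and the median of all 19087 genes (diamond). The medians of the 73 genes lie between -0.163 and -0.036, and +IFN and Control arrays overlap.

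The ratios of the 73 genes were correlated between all arrays. Over the 73 genes, Pearson's r was 0.68 to 0.81 between +IFN arrays, 0.70 to 0.83 between Control arrays and 0.55 to 0.93 between arrays of different groups. The highest value, 0.93, was that of +IFN array 2 with Control array 2. Over all genes, r was 0.61 to 0.78 between +IFN arrays, 0.61 to 0.71 between Control arrays and 0.35 to 0.72 between arrays of different groups. These are descriptions across genes, which are not independent replicates, and all arrays share the probes, the dye assignment and the kind of reference.

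Among the large subunit genes, Rpl4, whose protein lines the tunnel through which the new chain leaves, had the largest difference. Its ratio was -0.103, -0.931 and -0.617 on +IFN arrays 1, 2 and 3, and -1.402, -1.045 and -0.933 on Control arrays 1, 2 and 3. The +IFN values were all higher, but +IFN array 2 and Control array 3 differed by only a few thousandths, and +IFN array 1 stood well above the rest. The difference was 0.58 ± 0.24 (SE, n = 3 per group; limma, adjusted p = 0.628), and it was 0.35 without +IFN array 1. Rpl21, another large subunit protein, had 0.187, -0.181 and 0.037 on +IFN arrays, against -0.671, -0.256 and -0.222 on Control arrays, a difference of 0.40 ± 0.17 (limma, adjusted p = 0.638). Its groups did not overlap, and Control array 1 was the lowest, without which the difference was 0.25.

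Rpl31, which sits at the exit of the tunnel, and Rpl28 also had higher values on every +IFN array than on any Control array. Rpl31 had 0.128, 0.112 and 0.353 on +IFN arrays, against -0.085, -0.003 and -0.104 on Control arrays. Its difference was 0.26, with a 95% interval of -0.03 to 0.55. Rpl28 had 0.136, -0.309 and -0.319 on +IFN arrays, against -0.443, -0.433 and -0.407 on Control arrays, a difference of 0.26 ± 0.16. +IFN array 1 stood apart from the other 5 arrays, and without it the difference was 0.11. Rpl3, which lies near the site where peptide bonds form, had -0.330, -0.843 and -0.858 on +IFN arrays, against -1.155, -0.797 and -0.911 on Control arrays, with overlapping groups and again a high +IFN array 1. Its difference was 0.28 ± 0.19, and it was 0.10 without that array and 0.18 without Control array 1. Rpl14, with the lowest Control mean of the 73 after Rpl4 and Rpl3, had -0.646, -0.797 and -0.267 on +IFN arrays, against -0.452, -0.954 and -0.609 on Control arrays.

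At the other end stood Rpl41, the smallest ribosomal protein, and Rpl32. Rpl41 had 0.434, 0.770 and 0.586 on +IFN arrays, against 0.643, 0.955 and 0.821 on Control arrays, a difference of -0.21 ± 0.14, and the groups overlapped. It was -0.13 without +IFN array 1 and -0.14 without Control array 2. Rpl32 had -0.428, -0.448 and -0.296 on +IFN arrays, against -0.120, -0.283 and -0.236 on Control arrays. It was the single gene of the 73 whose +IFN values were all below its Control values, at -0.18 (95% interval -0.45 to 0.10). In all, 5 of 73 genes had groups that did not overlap, 4 upwards and 1 downwards, where 13.7% of all genes did, 8.08% upwards and 5.58% downwards.

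**Figure D3:**
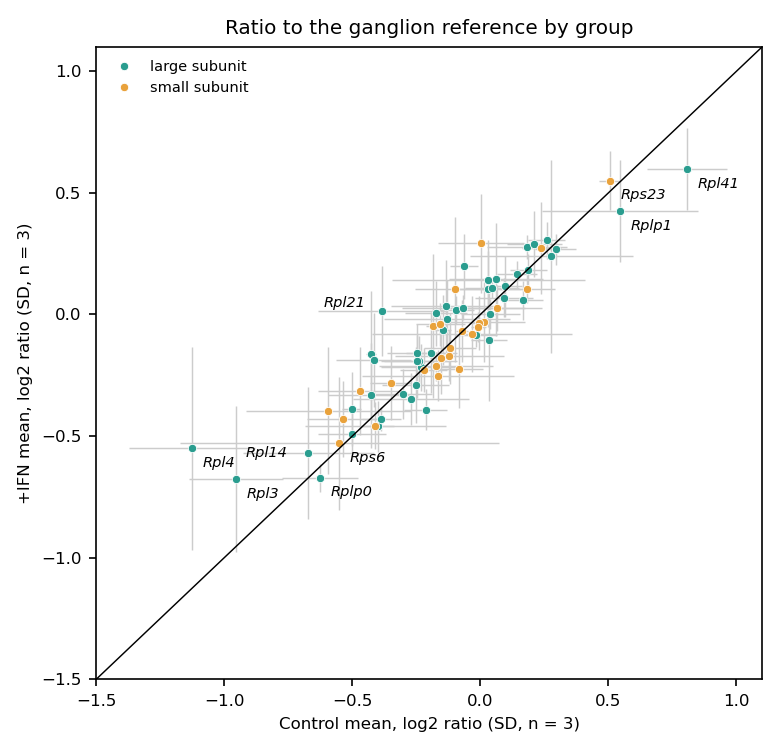
Mean log2 ratio in +IFN neurons (vertical axis) against that in Control neurons (horizontal axis) for the 73 genes, with the SD over 3 arrays as grey lines and the line of equal ratios in black. The points follow the line from Rpl4 and Rpl3 at the low end to Rpl41 at the high end, and Rpl4 and Rpl21 lie farthest above it.

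The stalk of the large subunit, which recruits elongation factors, is formed by Rplp0, Rplp1 and Rplp2 with Rpl12 at its base. Rplp1 had 0.661, 0.350 and 0.266 on +IFN arrays, against 0.309, 0.438 and 0.889 on Control arrays, and the groups overlapped. Rplp2, its partner, had 0.448, 0.199 and 0.224 on +IFN arrays, against 0.189, 0.117 and 0.326 on Control arrays. The differences of the 4 stalk genes ran from -0.12 for Rplp1 to 0.08 for Rplp2.

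Rplp0, often used as a reference gene in quantitative PCR, has the most features of the 73 genes, 12. Its gene mean was -0.611, -0.679 and -0.724 on +IFN arrays, against -0.797, -0.563 and -0.518 on Control arrays, a difference of -0.05 (95% interval -0.34 to 0.25). Of its features, 10 are annotated to 1 sequence record and agreed closely, with an SD over the 10 of 0.0157 to 0.120 on an array. Their differences ran from -0.10 to 0.05. The means of the 10 were -0.715, -0.782 and -0.833 on +IFN arrays, against -0.912, -0.655 and -0.620 on Control arrays, an SD of 0.0591 over the +IFN arrays and of 0.159 over the Control arrays. The SD over Control arrays was larger than that over features on any array. The other 2 features lay higher, at -0.481 to 0.118 on +IFN arrays and -0.401 to 0.135 on Control arrays. The annotation does not name probes, so whether the 10 are repeat spots of 1 probe is not known here.

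Rpl5 and Rpl11, which form a particle with the smallest large subunit RNA and, when unassembled, bind the p53 inhibitor Mdm2, had differences of 0.17 ± 0.16 and 0.08 ± 0.17. Rpl5 had 0.219, -0.162 and 0.043 on +IFN arrays, against -0.356, -0.122 and 0.075 on Control arrays, and its difference ranged between 0.06 and 0.27 with 1 array left out. Rpl13a, the ribosomal protein of the GAIT complex, had -0.374, -0.060 and 0.117 on +IFN arrays, against -0.044, 0.047 and 0.096 on Control arrays. The groups of Rpl13a overlapped, and its difference was -0.14 (95% interval -0.51 to 0.23). It was -0.0045 without +IFN array 1 and -0.25 without +IFN array 3. The change of RPL13A known from monocytes is a phosphorylation of the protein, which RNA ratios do not show.

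In the small subunit, all 26 genes had overlapping groups, and the differences ran from -0.14 for Rps26 to 0.29 for Rps20, with a median of -0.01, beside 0.05 for the 47 large subunit genes. Whether the subunits differ was not tested. Rps20 had 0.442, 0.058 and 0.375 on +IFN arrays, against -0.031, -0.148 and 0.182 on Control arrays, a difference of 0.29 ± 0.16 (limma, adjusted p = 0.705). Rps26, which contacts mRNA at the exit channel, had -0.408, -0.138 and -0.124 on +IFN arrays, against 0.003, -0.069 and -0.180 on Control arrays, and differed by -0.05 without +IFN array 1. Rps3, which lines the channel where mRNA enters, had nearly equal means, -0.07 ± 0.13 in +IFN neurons and -0.07 ± 0.02 in Control neurons (SD, n = 3 each). Rps23, a protein of the decoding centre, had the third highest Control mean of the 73 genes, with 0.55 ± 0.12 in +IFN neurons and 0.51 ± 0.04 in Control neurons.

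Rps6, the substrate of the S6 kinases downstream of mTOR, had the least certain value. Its gene mean was -0.294, -0.468 and -0.830 on +IFN arrays, against -1.213, -0.464 and 0.022 on Control arrays. The spread came from 1 of its 2 features, which ran from -1.530 to -0.218 on +IFN arrays and from -1.966 to 0.234 on Control arrays, while the other stayed between -0.370 and -0.130 on +IFN arrays and between -0.460 and -0.189 on Control arrays. The features differed by -0.02 and 0.07 between the groups.

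Features of 1 gene did not always give the same sign. Of 40 genes with 2 or more features, 24 had features with differences of both signs. The share over all genes was not computed. Differences of the 73 genes were small beside their errors, with a median absolute difference of 0.075 and a median SE of 0.131. The gap between the lowest and the highest feature had a median of 0.153. It was widest in Rps18, Rpsa and Rps28. The 3 features of Rps18 differed by -0.14, 0.16 and 0.39, and those of Rpsa, which is also known as the laminin receptor, by -0.05 and 0.37. Rps28 features ran from -0.37 to 0.05. Over all 138 features, differences ran from -0.37 to 0.58, and 1 lay beyond 0.5. Ribosomal protein genes have many processed pseudogenes with nearly the same sequence, so a feature may also bind RNA of a copy.

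**Figure D4:**
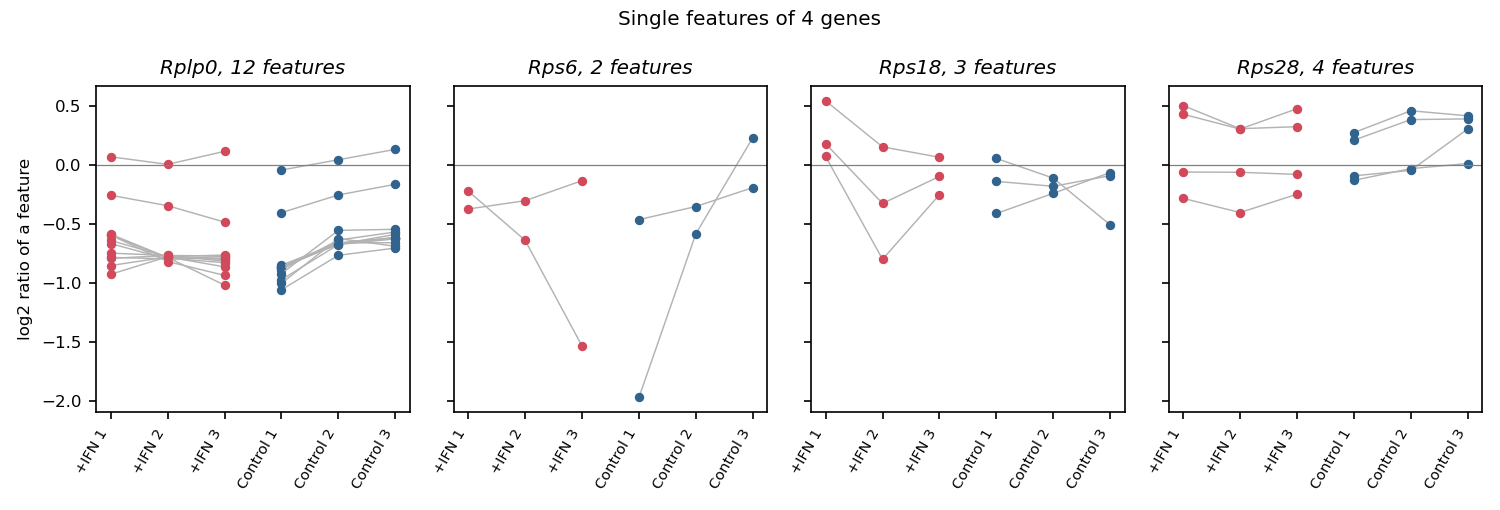
Log2 ratio (vertical axis) of each single feature of Rplp0, Rps6, Rps18 and Rps28 on the +IFN and Control arrays, where a grey line joins the values of 1 feature within a group. The 10 lower features of Rplp0 lie close together on every array, whereas 1 feature of Rps6 spans from -1.966 to 0.234.

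Several of the 73 genes encode paralogues of a core protein. Rps27l, known as a p53 target, had -0.235, -0.080 and 0.078 on +IFN arrays, against -0.294, -0.218 and 0.415 on Control arrays, and differed by -0.05 ± 0.22, beside 0.12 ± 0.12 for Rps27. Rpl36al differed by 0.18 ± 0.13, beside 0.03 ± 0.13 for Rpl36a. Rpl3l, known from skeletal and heart muscle, differed by 0.11 (95% interval -0.40 to 0.62), and Rpl39l, known from testis, by -0.04 (-0.65 to 0.57), beside 0.28 for Rpl3 and 0.02 for Rpl39. All of these groups overlapped. Rpl10 and Rps4x, both on the X chromosome, differed by -0.07 and -0.04, and Rpl22, known from lymphocyte development in mice, by 0.09. For genes that the culture may hardly express, a ratio near 0 can also come from signals below background in both channels, which the ratios alone do not show. Related genes outside the rule also missed the threshold, with differences of 0.12 for Rps3a1, 0.18 for Rpl7l1, -0.01 for Rpl22l1 and -0.10 for Fau, whose product is split into a ubiquitin-like protein and a small subunit protein.

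The groups in this paragraph, by position, known role or start sequence, are parts of the 73 genes. Their counts past either p threshold of limma were therefore 0 in advance, and only medians and ranges are added here. The median difference was 0.05 for 9 measured genes at the peptide exit tunnel. It was 0.00 for 5 at the mRNA entry and decoding sites and -0.04 for 5 at the mRNA exit and platform. The 16 measured genes mutated in the human disorder Diamond-Blackfan anaemia had a median of 0.02 and a range of -0.14 to 0.26. The 10 genes with a GAS or ISRE match at a start had a median difference of 0.05 and the 49 with neither had 0.01. The 18 genes with a pyrimidine run at a start had a median of 0.09 and the 41 without had -0.02. The differences between the medians were not tested.

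Other genes of translation and ribosome production were read from the same fit. Of 78 mitochondrial ribosomal protein genes, which serve the separate ribosome of mitochondria, 0 passed the threshold, with a median of 0.04 and a range of -0.31 to 0.45, and 1, Mrps6, had an unadjusted p under 0.05 (0.45 ± 0.11; limma, adjusted p = 0.232). Counts were also 0 among 10 elongation factors, 32 initiation factors, 43 genes of ribosome assembly, 20 genes of RNA polymerase I and its factors, and 19 genes of mTOR signalling and TOP mRNA control. By limma's unadjusted p under 0.05, 1 elongation factor was higher, 1 assembly gene and 1 gene of the mTOR list were lower, and the other lists had none. The medians of these 5 lists were 0.13, 0.04, 0.02, -0.02 and -0.01. The most extreme assembly genes were Tcof1, at -0.53 ± 0.24, and the GTPase Gnl3l, at -0.40 ± 0.13 (limma, adjusted p = 0.473).

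The other known TOP mRNAs, a list of 17 measured genes with 0 past the threshold and 0 at an unadjusted p under 0.05 (limma), had a median of 0.17, with 15 differences above 0. Eef1a1, the factor that brings aminoacyl-tRNA to the ribosome, had 0.027, -0.680 and -0.492 on +IFN arrays, against -0.909, -0.629 and -0.471 on Control arrays, and differed by 0.29 ± 0.22. Its groups overlapped, +IFN array 1 was the highest and Control array 1 the lowest, as in Rpl4. Pabpc1, the poly(A)-binding protein, had the highest difference of that list, 0.46 ± 0.26, and Eef2 and Npm1 differed by 0.20 ± 0.22 and 0.18 ± 0.17. Control array 1 held the lowest list median of the 6 arrays, -0.38, and +IFN array 1 the highest, -0.03.

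Genes through which interferons are known to act on translation form the last list, and some of them rose on the same arrays. Of 11 measured genes in a list of interferon-linked translation control, 6 rose and 0 fell (limma, adjusted p under 0.05), with a median of 1.78. Eif2ak2, the kinase PKR that phosphorylates the initiation factor eIF2 in response to double-stranded RNA, had 2.135, 1.993 and 2.178 on +IFN arrays, against 0.187, 0.221 and 0.563 on Control arrays. It rose by 1.78 ± 0.14 (SE, n = 3 per group; limma, adjusted p = 0.00256). Ifit1, which binds foreign RNA caps, rose by 4.56 ± 0.22, Isg15, a ubiquitin-like modifier, by 3.87 ± 0.22, and Oas1a, which makes the activator of RNase L, by 2.63 ± 0.27. Ifit2 and Ifit3 rose by 1.42 ± 0.17 and 1.89 ± 0.14. In the GAIT list, 0 of 6 genes passed, 1 was lower at an unadjusted p under 0.05 (limma), and all 6 differences were below 0, with a median of -0.12. Gapdh, a glycolytic enzyme and the GAIT member with the largest difference, had -0.65 ± 0.18 (limma, adjusted p = 0.370).

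**Figure D5:**
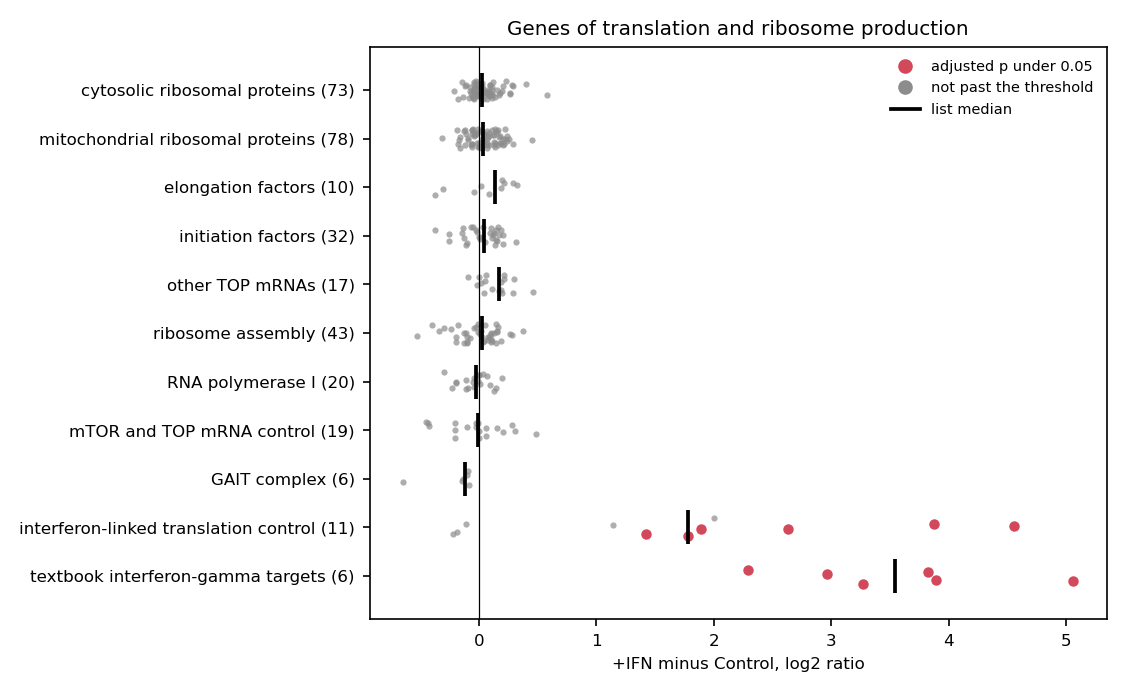
Difference (+IFN minus Control, log2 ratio) of each gene in 11 groups of translation and interferon genes, with the number measured in brackets, red where the adjusted p is under 0.05, and a black bar at the group median. The ribosomal protein groups lie around 0, while 6 genes of interferon-linked translation control and all 6 textbook targets are red and above 1.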

How the data were processed

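The authors deposited 1 log2 ratio per array feature, read with Agilent Feature Extraction per the submitters' processing notes, with version, background correction and dye normalization not given in the sources used here. The log2 scale was inferred from the range of the values, -9.00 to 10.73, and the direction, Cy5 neuron RNA over Cy3 ganglion RNA, from the labelled dyes together with the rise of known targets. Array medians lay between 0 and 0.005, so each array had been centred. Of 45220 features, 33653 had 1 gene in the platform annotation, and features of 1 gene were averaged. Groups were compared over all 19087 genes with R 4.3.3 and limma 3.58.1 (a linear model per gene with eBayes moderation, two-sided, Benjamini-Hochberg adjustment, threshold 0.05), a script tested on simulated data. In 20 simulated data sets with 200 changed genes each, it recovered 0.9% of log2 changes of 0.5, 47.1% of those of 1 and 93.1% of those of 2. Of the calls, 5.8% were false. Small changes would thus mostly miss the threshold. Errors of a difference are standard errors and intervals are at 95%. The number of arrays limits the precision, and signal and background were not analysed here, so dim features could not be filtered out. The members and lists were chosen with earlier results of these data known. Named members were those past the threshold, the 5 largest differences each way, the 3 highest and 3 lowest Control means, the 3 with the least alike features, and the 18 measured genes of a fixed list. Of the other lists, genes past the threshold, the 2 largest differences and a few fixed genes could be named, and only some are. Rpl12, Rpl31, Rpl39, Rpl39l, Rps29 and the related genes outside the rule were named after their values were seen. Motifs were searched in RefSeq promoter sequence of GRCm38.p6. Alternatives were quantile normalization, the median over features, listed zeros as missing, array weights, a robust variance model, leaving out the 25% of genes with the lowest SD, a replicate block, and leaving out each array.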

Additional observations from a re-analysis of the deposited data

How the results depend on the processing

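Under all 13 alternatives, 0 ribosomal protein genes passed the threshold (limma). The lowest adjusted p of the 73 was 0.214, for Rpl4 without +IFN array 2. At an unadjusted p under 0.05 (limma), 4 of the 73 genes were higher with array weights, 3 without +IFN array 2, 1 with quantile normalization and 0 otherwise, and none was lower. The shares over all genes in these settings were not computed. In the main fit they were 5.27% higher and 2.68% lower, so these counts are not read as a result about the ribosomal protein genes. The median difference ranged from -0.0045 to 0.0769 when 1 array was left out, and was 0.10 without the 25% of genes with the lowest SD, which left 31 of the 73. The count of genes past the threshold over all genes, 217, ranged from 113 to 508 when 1 array was left out, and was 508 without +IFN array 2, 113 without +IFN array 3, 134 without +IFN array 1, 136 without Control array 1 and 133 without Control array 2. With the replicate number as a block it was 166 and the ribosomal protein count stayed 0. Correlations of same-numbered arrays' deviations were 0.0644, 0.309 and -0.0314 for arrays 1, 2 and 3. Only that of arrays 2 stood above all other pairs, so the numbers were not taken to pair the samples. Other pairs of a +IFN and a Control array had -0.269 to 0.175. The highest of these were +IFN array 1 with Control array 3, 0.175, and +IFN array 3 with Control array 1, 0.172. Whether arrays of the groups are paired in another order, or whether +IFN array 2 and Control array 2 share an origin, was not tested. Among 29 named genes, 23 of 365 values changed sign, none past the threshold. With other settings, Rps6 was -0.0227 with quantile normalization and -0.0701 with array weights, Rps27l 0.0401 and Rps4x 0.0040 with array weights. With 1 array left out, values ranged from -0.0172 to 0.22 for Rpl11, -0.0498 to 0.22 for Rpl14, -0.0361 to 0.13 for Rpl36a, -0.0803 to 0.30 for Rpl3l, -0.13 to 0.00815 for Rplp0, -0.24 to 0.0522 for Rplp1, -0.0216 to 0.27 for Rps18, -0.0217 to 0.0963 for Rps23, -0.18 to 0.18 for Rps27l, -0.0693 to 0.0519 for Rps3, -0.0965 to 0.0653 for Rps4x and -0.31 to 0.31 for Rps6. The cause was not tested. Depth cannot be given for ratios, and the number of arrays and the spread between them limit the precision.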
